A study of Mus musculus with 4 samples.

Results

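Genes whose liver RNA stood on 1 side of normal liver on every transgenic array were collected: a gene was taken where both WHV/c-myc transgenic values lay above both wild-type values, or both below, and genes were ranked by the gap between the nearest transgenic and wild-type values. Of 13956 genes above the floor on at least 1 of the 4 arrays, 2116 (15.2%) lay above in both transgenic samples. Another 2459 (17.6%) lay below, 4575 genes (32.8%) together. Arrays split 2 against 2 without any difference would, ties aside, give a share of 0.333. These counts alone therefore do not show a genotype difference. The gap reached 2-fold in 26 higher genes (0.186%), among them Ccnd1, Cyp17a1, Dynll1, Srsf3 and the replication helicase genes Mcm2 and Mcm4. It reached 2-fold in 16 lower genes (0.115%), led by the transcriptional repressor gene Bcl6 and including Socs3, Usp2, Per3 and Plk3. Of the gene lists, 23 of 38 ribosome biogenesis genes and 11 of 13 chaperonins and mitochondrial chaperones lay above with small gaps, and 0 of either lay below. Of complement and coagulation genes 18 of 32 lay below, and of gluconeogenesis and fasting genes 12 of 25.

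The samples were livers of C57/BL6 mice, with 1 array for each of 4 states. Wild-type liver was taken at 5 and at 11 months of age. Transgenic liver at 5 months was non-tumorous but held dysplastic hepatocytes, a stage the submitters regarded as preneoplastic, and the transgenic sample at 11 months was tumour tissue, mostly well-differentiated hepatocellular carcinoma. Each array stood for 5 mice, and the labels speak both of mixed liver samples and of a mean over 5 samplings, so whether RNA was pooled or signals were averaged is not settled. The sex of the mice was not given in the labels. WHV/c-myc mice carry a c-myc transgene with sequences of woodchuck hepatitis virus, which drive it in liver. The 2 arrays of a genotype differ in age, and the transgenic ones also in tissue, so they are not plain replicates, and any spread or p-value between genotypes includes those differences.

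Values are array intensities after quantile normalization, which gives all arrays the same distribution. The floor was the overall median, an intensity of 28.3 (4.82 on the log2 scale), and lower values were set to it before the log2 transformation. Where both arrays of the lower side lay at or under the floor, the gap is a bound and is written as at least that many fold. The moderated test of limma over all 13956 genes, fitted on 2 against 2 arrays, called 0 genes at an adjusted p under 0.05. Its lowest adjusted p was 0.826, and 647 genes (4.64%) had an unadjusted p under 0.05. With age as a block it also called 0, with 774 genes at an unadjusted p under 0.05 and a lowest adjusted p of 0.765. An exact two-sided permutation test of 2 against 2 arrays cannot give a p below 0.333. The gaps below are therefore descriptions of these 4 arrays.

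The c-Myc protein pairs with MAX and binds E-box DNA, for which CACGTG is the canonical site, and it drives ribosome production, nucleotide synthesis and entry into the cell cycle. It can also lower the transcription of other genes, in part by acting through other DNA-binding proteins. In adult liver most hepatocytes are quiescent and devote much of their RNA to plasma proteins and to metabolic and detoxifying enzymes.

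Across the higher genes the median gap was 0.17 on the log2 scale, and 249 genes had a gap of at least 0.5. Across the lower genes the median gap was -0.16, and 174 had a gap of that size. The 5-month transgenic array was the one nearer to wild-type in 1569 (74.1%) of the genes that lay above and 1625 (66.1%) of those that lay below. The median log2 ratio of transgenic to wild-type in the higher genes was accordingly 0.32 at 5 months and 0.64 at 11 months, and in the lower genes -0.29 and -0.55. Among the genes with a 2-fold gap, the higher genes had medians of 1.21 and 1.68, and the lower genes -1.47 and -1.44. Over all genes, the age-matched log2 ratios, which share no array, had a Pearson r of 0.16 and a Spearman rho of 0.18 across 13956 genes, which are not independent replicates.

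**Figure D1:**
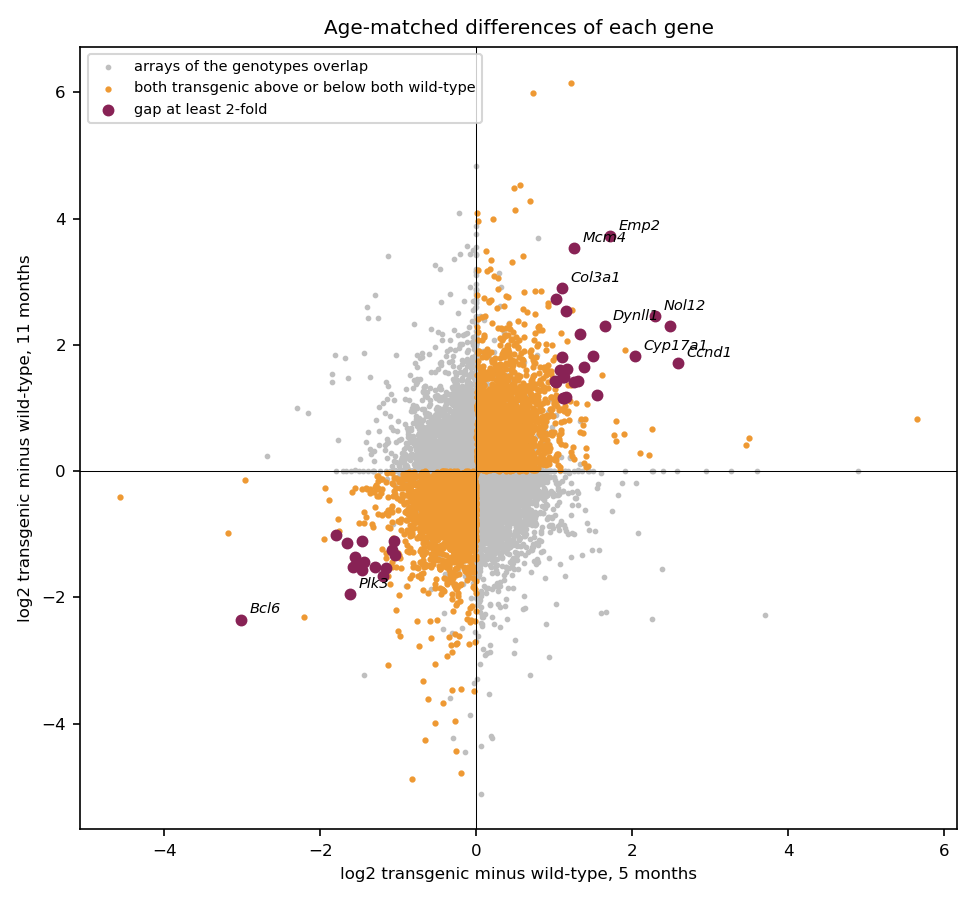
Log2 difference of transgenic minus wild-type liver at 5 months (horizontal axis) against that at 11 months (vertical axis), 1 point for each of 13956 genes. Orange points are genes whose transgenic arrays both lay above or both below the wild-type arrays, large dark points are the 42 genes with a gap of at least 2-fold, and grey points overlap; the vertical spread (SD 0.74) is wider than the horizontal one (SD 0.42).

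By definition, a gene with a 2-fold gap is also at least 2-fold apart at each age. In both age-matched ratios, 48 genes were 2-fold higher and 32 were 2-fold lower. Of these, 26 and 16 are the genes with a 2-fold gap between the nearest arrays of any age. Among the 48 higher genes 0 overlapped, and 1 of the 32 lower genes did. Another probe set of the same gene was above the floor for 13 of the 26 higher genes, and in 11 of those (84.6%) it also separated the genotypes in the same direction. For the lower genes that held in 6 of 9 (66.7%). Without a limit on the gap, 1020 higher and 1243 lower genes had another probe set above the floor; in 428 (42.0%) and 488 (39.3%) of these one separated the genotypes the same way, and in 103 and 122 one separated them the opposite way. At the threshold itself, the last gene inside was Pdgfrb, with a gap of 1.01, and Mbd3, with a bound of 0.99, lay just outside; on the lower side Pim3 had -1.01 and Gpcpd1 -0.997.

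**Figure D2:**
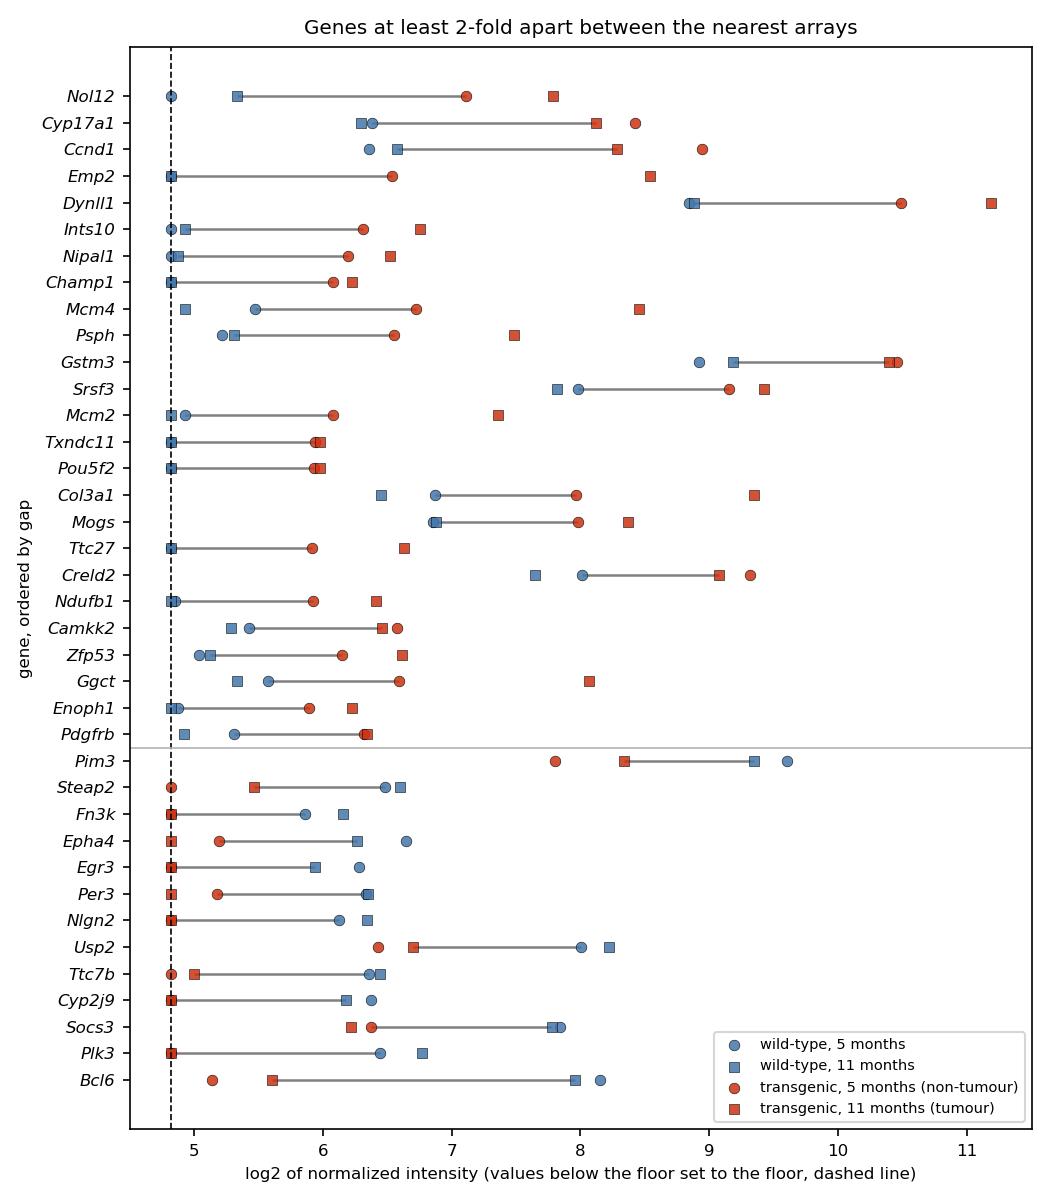
Log2 normalized intensity of the 38 genes with a symbol and a gap of at least 2-fold on each of the 4 arrays (circles 5 months, squares 11 months; blue wild-type, red transgenic), with a grey line across the gap and a dashed line at the floor. Genes above the thin line are higher and genes under it lower in transgenic liver; Bcl6 has the longest line on the lower side, and points on the dashed line have a bound only.

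Ccnd1, which encodes cyclin D1, the partner of CDK4 and CDK6 in G1, had an intensity of 82.2 in wild-type liver at 5 months and 95.2 at 11 months, against 494 in preneoplastic transgenic liver and 312 in tumour. Both transgenic arrays were far above both wild-type arrays, the preneoplastic one more so, and the gap was 3.28-fold. Mcm4, a subunit of the MCM helicase that is loaded at replication origins, read 44.3 and 30.5 in wild-type liver, 106 at 5 months and 352 in tumour. The tumour value was the highest by a wide margin, and the gap of 2.39-fold was set by the 5-month array. Mcm2, another subunit of that helicase, read 30.4 and 26.2 in wild-type liver, 67.4 and 164 in transgenic liver, in the same order and with a gap of 2.22-fold.

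Cyp17a1, the steroid 17-alpha-hydroxylase, read 83.5 and 78.5 in wild-type liver and 343 and 278 in transgenic liver. The wild-type arrays were close together and the gap was 3.33-fold. Psph, which catalyses the last step of serine synthesis, read 37.2 and 39.7 against 93.7 and 179, a gap of 2.36-fold. The tumour again held the highest value. Gstm3, a glutathione S-transferase of the mu class, read 484 and 584 against 1407 and 1347, so that the transgenic arrays nearly coincided, 2.31-fold above the nearest wild-type value. Cyp17a1 is on the list of genes that differ between male and female mouse liver, which is described further on with the values of the sex-linked genes.

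Mogs encodes the glucosidase that starts the trimming of N-linked glycans, and it read 116 and 118 in wild-type liver, 252 and 330 in transgenic liver. Its wild-type values were almost equal and the gap was 2.14-fold. Creld2, an endoplasmic reticulum protein induced by unfolded proteins, read 258 and 201 against 638 and 540, with no overlap and a gap of 2.10-fold. Txndc11, a thioredoxin-domain protein of the same compartment, was under the floor in wild-type liver and read 61.4 and 62.9 in transgenic liver, at least 2.17-fold higher.

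Srsf3, a splicing factor of the SR family, read 253 and 225 in wild-type liver and 569 and 690 in transgenic liver, a gap of 2.25-fold. All 5 of its other probe sets above the floor had the same sign. Nol12, a nucleolar protein of ribosomal RNA processing, read 13.4 and 40.4 against 138 and 221, a gap of 3.42-fold in which the 5-month wild-type value was under the floor. Ints10, a subunit of the Integrator complex that processes small nuclear RNAs, read 25.2 and 30.4 against 79.4 and 108, a gap of 2.61-fold, and its 5-month wild-type value was likewise under the floor. Zfp53, a zinc finger protein, had a gap of 2.04-fold between wild-type values of 32.9 and 34.8 and transgenic values of 70.9 and 98.1. Champ1, a zinc finger protein needed for chromosome alignment, was at least 2.39-fold higher, and Pou5f2, a POU-domain protein, at least 2.16-fold.

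Dynll1, a light chain of cytoplasmic dynein, read 459 and 473 in wild-type liver, 1434 at 5 months and 2330 in tumour. Its genotypes were 3.03-fold apart. Emp2, a tetraspan membrane protein, was under the floor at 24.1 and 28.0 in wild-type liver and read 92.6 and 372 in transgenic liver, at least 3.28-fold higher. Camkk2, a kinase that activates AMPK, read 42.9 and 38.9 against 95.5 and 88.0, a gap of 2.05-fold with the transgenic arrays close together. Ttc27, a tetratricopeptide repeat protein, was at least 2.14-fold higher.

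Col3a1, the chain of type III collagen, read 117 and 87.6 in wild-type liver, 251 at 5 months and 651 in tumour, a gap of 2.15-fold. Pdgfrb, the receptor of platelet-derived growth factor on stellate cells and fibroblasts, read 39.7 and 30.2 against 79.9 and 81.0, a gap of 2.01-fold. Both are made by mesenchymal cells rather than by hepatocytes. In bulk tissue, more cells of a type and more RNA per cell cannot be told apart. The remaining higher genes, outside the naming rule and so named after their values were seen, were Nipal1 (2.49-fold), Ndufb1 (2.10-fold), Ggct (2.03-fold) and Enoph1 (2.02-fold), beside 1 gene known by a clone name.

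Which probe sets represent a gene mattered for several of these. Some probe sets carry a suffix that marks possible matches to more than 1 transcript. With those left out, the log2 gap was 0.35 for Mcm4, 0.14 for Mcm2, 0.05 for Gstm3, 0.47 for Srsf3, 0.12 for Col3a1, 0.11 for Ggct and 0 for Camkk2, and Enoph1 and Pdgfrb had no value. Of the lower genes described next, Socs3 then had -0.23 and Pim3 -0.35. The 2-fold counts were 18 and 14, of which 17 and 14 are genes counted here. With all probe sets of a gene averaged, those under the floor included, Ccnd1 (1.49), Dynll1 (1.18), Bcl6 (-1.55) and Usp2 (-1.37) kept a 2-fold gap. Cyp17a1, Psph, Pou5f2, Mogs, Ttc27, Creld2 and Ndufb1 have no other probe set with 1 symbol, so averaging could not change them. The same holds for Cyp2j9, Plk3 and the clone-named genes that stayed. Among the genes that fell under 2-fold, the log2 gap was 0.96 for Nol12, 0.41 for Emp2, 0.28 for Camkk2 and -0.19 for Per3.

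Of the lower genes, Bcl6 stood apart. It encodes a zinc finger repressor that in liver restrains genes of lipid metabolism and takes part in the sex difference of liver expression. Its intensity was 284 and 248 in wild-type liver and 35.2 and 48.6 in transgenic liver. Both transgenic values were just above the floor, and the gap of 5.11-fold was larger than that of any other gene in either direction; the single other probe set above the floor had the same sign. Its promoter is shown here as the member with the largest gap and 1 of only 2 among the 2-fold genes with a promoter record that hold CACGTG, the other being a higher gene. The stretch is the 250 bases before the start of transcription in RefSeq, build GRCm38.p6, chr16:23988853-23989102, minus strand, 5′ to 3′, with CACGTG in capitals, its first base 60 bases before the start:
Bcl6: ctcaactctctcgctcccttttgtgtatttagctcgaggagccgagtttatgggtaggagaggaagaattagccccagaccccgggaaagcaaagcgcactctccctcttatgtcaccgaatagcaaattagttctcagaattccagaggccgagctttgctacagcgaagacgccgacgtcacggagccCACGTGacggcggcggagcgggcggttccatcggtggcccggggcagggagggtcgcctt

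Among the other lower genes, Socs3, the feedback inhibitor of STAT3 signalling, read 230 and 220 in wild-type liver and 82.9 and 74.5 in transgenic liver. Values within each genotype were close, and the gap was 2.65-fold. Pim3, a serine/threonine kinase of the PIM family, read 780 and 651 against 224 and 324, a gap of 2.01-fold. Plk3, a kinase of the polo family that responds to stress, read 87.0 and 109 in wild-type liver and was under the floor in both transgenic samples, at least 3.08-fold lower.

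Usp2, a deubiquitinase with a strong daily rhythm in liver, read 257 and 299 against 85.9 and 104, a gap of 2.47-fold. Per3, a member of the period family, read 80.9 and 81.7 against 36.2 and 26.1, a gap of 2.24-fold, but only 2 of its 4 other probe sets above the floor had the same sign. The time of day at which the livers were taken was not given in the labels.

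Egr1, an immediate early transcription factor, read 708 in wild-type liver at 5 months and 172 at 11 months, against 78.0 and 87.2 in transgenic liver. The wild-type arrays differed more from each other than the nearest values of the genotypes did, and the gap was 1.97-fold. Egr3, of the same family, was under the floor in both transgenic samples and at least 2.16-fold lower.

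The next lower genes had gaps of 2-fold or just under. Gpcpd1, which splits glycerophosphocholine, had 2.00-fold and Coq10b, a coenzyme Q binding protein of mitochondria, 1.99-fold. Enpp3, an ectonucleotide pyrophosphatase, had 1.98-fold, with 483 and 599 in wild-type liver, 245 at 5 months and 97.8 in tumour. Herpud1, which takes part in the degradation of proteins from the endoplasmic reticulum, read 1935 and 1878 against 968 and 765, a gap of 1.94-fold. Nnmt, which methylates nicotinamide and is abundant in hepatocytes, read 1185 and 1312 against 565 and 628, a gap of 1.89-fold. These genes were bright in wild-type liver, well away from the floor. Abtb1 and Rgs7bp each had 1.86-fold.

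Bounds on the lower side were at least 2.56-fold for Cyp2j9, an arachidonic acid epoxygenase, at least 2.47-fold for Nlgn2, a neuroligin, at least 2.06-fold for Fn3k, which repairs glycated proteins, and at least 1.86-fold for Rslcan18, a zinc finger protein. The other lower genes at 2-fold, named after their values were seen, were Ttc7b (2.56-fold), Epha4 (2.09-fold) and Steap2 (2.03-fold), beside 3 genes known by clone names.

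Myc itself was on the lower side. Its 1 probe set read 42.5 and 42.1 in wild-type liver and 16.1 and 27.2 in transgenic liver, both under the floor, at least 1.49-fold lower. No source used here says whether that probe set detects the transgene's RNA, so this value is no check of the transgene.

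Gene lists were then counted against the share over all genes, 15.2% higher and 17.6% lower. None of their members was called by limma, so the counts describe positions of arrays. The genes of ribosome production were on the higher side: 23 of 38 ribosome biogenesis genes (60.5%) lay above in both transgenic samples and 0 lay below. Their median difference between genotype means was 0.77 on the log2 scale, against -0.02 for all genes, and it was 0.24 at 5 months and 1.16 at 11 months. The largest gaps were those of Ftsj3, a methyltransferase of ribosomal RNA precursors (74.3 and 86.2 against 151 and 186, 1.75-fold), Rrp12, an export factor of ribosomal subunits (at least 1.57-fold), and Nop2, a nucleolar RNA methyltransferase (51.4 and 61.0 against 94.1 and 185, 1.54-fold). Nop2 had its highest value in tumour and no overlap.

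Ribosomal proteins followed, with 16 of 22 (72.7%) above and 0 below and a median of 0.46. Rps19, of the small subunit, read 1239 and 1248 in wild-type liver, 1517 at 5 months and 3366 in tumour, a gap of 1.22-fold. Rpl14 and Rpl12, of the large subunit, had 1.23-fold and 1.17-fold. Chaperonins and mitochondrial chaperones had the highest share of the lists drawn up, 11 of 13 (84.6%) above and 0 below, with a median of 0.60. Cct3, a subunit of the cytosolic chaperonin that folds actin and tubulin, read 998 and 1017 against 1613 and 2391, 1.59-fold apart. All 4 of its other probe sets above the floor had the same sign. Cct2 and Cct7, further subunits, had 1.25-fold and 1.21-fold. Translation factors had 14 of 22 (63.6%) above and 0 below, with gaps of 1.35-fold for Aimp2, a scaffold of the aminoacyl-tRNA synthetases, 1.24-fold for Eif4e, the cap-binding factor, and 1.19-fold for Eif5b. In these lists the named gaps were small, and the median ratio was larger at 11 than at 5 months.

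Synthesis of nucleotides, polyamines and one-carbon units had 10 of 25 (40.0%) above and 1 below. Beside Psph, Odc1, the first enzyme of polyamine synthesis, read 784 and 664 against 1178 and 1339, a gap of 1.5-fold. Umps, which makes uridine monophosphate, had 1.49-fold, and Prps1, which makes the ribose donor of nucleotides, was the member below, at 1.2-fold. DNA replication licensing had 9 of 25 (36.0%) above and 1 below. Prim1, the primase subunit, read 67.8 and 73.7 against 113 and 312, a gap of 1.54-fold, and Orc1, of the origin recognition complex, was the member below at 1.08-fold.

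Mitosis and cell cycle genes differed between the ages. Their median ratio was 0.00 at 5 months and 1.96 at 11 months, and 10 of 34 (29.4%) lay above and 0 below. Of the 34, 17 and 16 were above the floor in wild-type liver, 20 in the 5-month transgenic sample and 34 in tumour. Without the tumour array only 24 entered. The median of 0.00 thus includes genes set to the floor on both 5-month arrays. Ccnd1 led them. Ccne1, cyclin E1, read 68.5 and 60.2 against 86.4 and 115, a gap of 1.26-fold. Mybl2, a transcription factor of the G1 to S transition, had 1.17-fold. In the other 24 genes of this list the arrays of the genotypes overlapped.

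**Figure D3:**
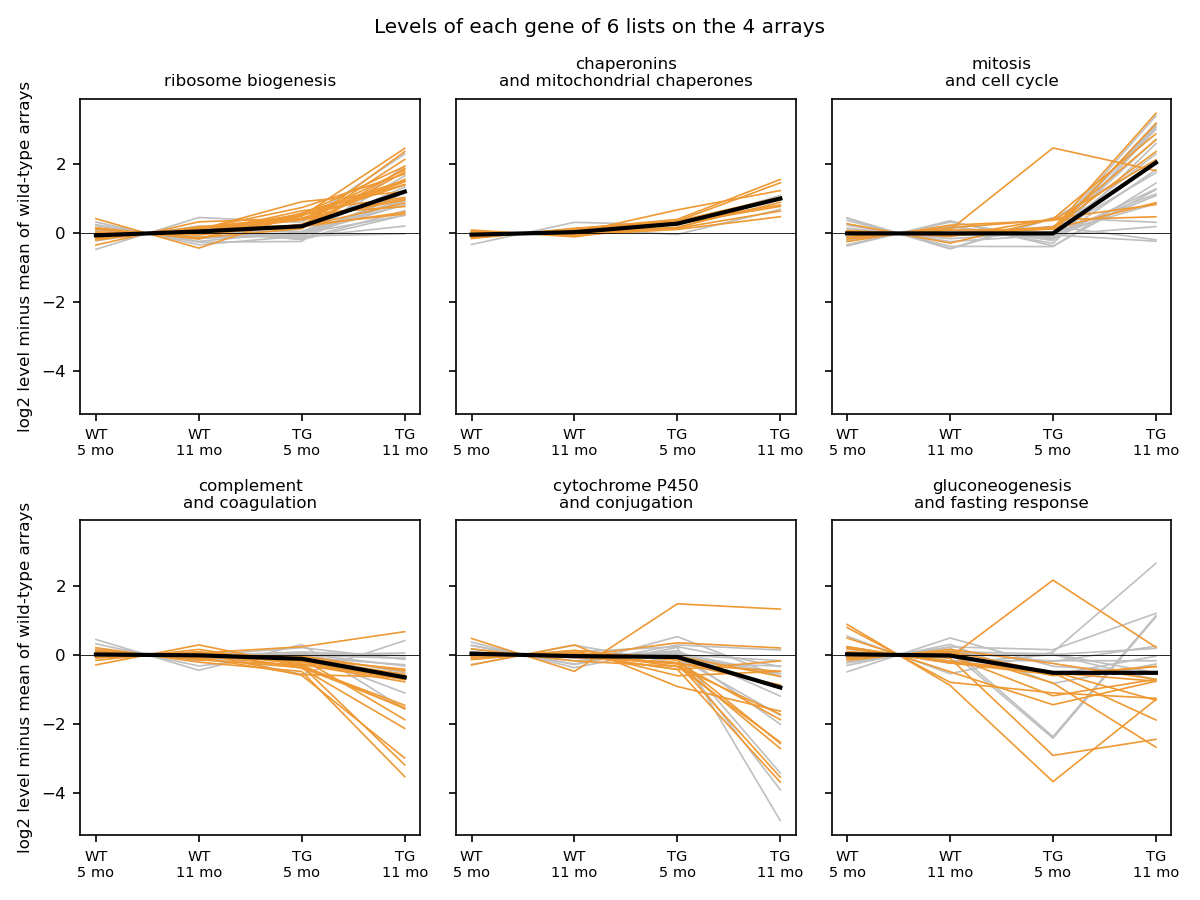
Log2 level of every gene of 6 lists on the 4 arrays, relative to the mean of the wild-type arrays; orange lines are genes without overlap between genotypes, grey lines the other genes, and the black line is the list's median. The median of mitosis and cell cycle genes stays at 0 at 5 months, where part of them are at the floor, and lies well above it in tumour. That of gluconeogenesis and fasting genes is below 0 at both ages.

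Plasma protein, detoxification, bile acid, fasting and amino acid lists held more genes below than above. Complement and coagulation factors, which hepatocytes secrete into plasma, had 18 of 32 (56.2%) below and 1 above, with a median of -0.41, which was -0.13 at 5 months and -0.62 at 11 months. C6, of the membrane attack complex, read 981 and 1071 in wild-type liver, 678 at 5 months and 128 in tumour, a gap of 1.45-fold. C9, of the same complex, read 3544 and 3173 against 2250 and 2140, a gap of 1.41-fold, and F9, coagulation factor IX, had 1.26-fold. C1qa, a macrophage product, was the member above, at 1.13-fold. Acute phase proteins had 7 of 23 (30.4%) below and 0 above. Beside Socs3, Saa1, a serum amyloid, read 1281 and 4478 against 277 and 898, so that the ages differed widely within each genotype, with a gap of 1.43-fold. Saa4 had 1.26-fold.

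Cytochrome P450 and conjugation enzymes had 15 of 30 below and 2 above, with a median of -0.54, which was -0.07 at 5 months and -0.98 in tumour. Nr1i3, the nuclear receptor CAR that controls many of them, read 377 and 564 against 244 and 149, a gap of 1.54-fold. Ugt3a2, a UDP-glycosyltransferase, had 1.32-fold and Cyp3a13 1.28-fold. Cyp2b10, a target of CAR, was on the opposite side at 56.5 and 29.2 against 113 and 102, a gap of 1.80-fold, and Fmo1, a flavin monooxygenase, was above at 1.12-fold. Bile acid synthesis and transport had 8 of 20 (40.0%) below and 0 above, with medians of -0.11 and -0.97 at the same ages. Cyp7a1, which commits cholesterol to bile acids, read 1257 and 891 against 616 and 312, a gap of 1.45-fold, Slco1b2, a bile acid uptake carrier, had 1.42-fold, and Cyp8b1 had 1.38-fold.

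Gluconeogenesis and the fasting response had 12 of 25 (48.0%) below and 1 above, with medians of -0.57 at 5 months and -0.41 at 11 months. Beside Bcl6, Pck1, which encodes the gluconeogenic enzyme PEPCK, read 3288 and 3697 against 1973 and 543, a gap of 1.67-fold. Cebpb, a transcription factor of the fasting response, read 848 and 827 against 368 and 513, a gap of 1.61-fold. Angptl8, which is induced by feeding, was the member above, at 136 and 124 against 585 and 151, so that the 5-month transgenic array stood alone, and its gap was 1.11-fold. The mice had free access to food per the labels. Amino acid catabolism and the urea cycle had 11 of 27 (40.7%) below and 0 above, with medians of -0.17 and -0.55, led by Oat, ornithine aminotransferase, with 1.44-fold, Asl, argininosuccinate lyase, with 1.40-fold, and Mat1a, which makes S-adenosylmethionine, with 1.21-fold.

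The tumour array carried much of these medians. Relative to all genes, the median of complement and coagulation was -0.39 and became -0.08 without transgenic replicate 2 (tumour), that of cytochrome P450 and conjugation went from -0.52 to -0.03, and that of amino acid catabolism from -0.31 to -0.05. Ribosome biogenesis went from 0.78 to 0.24 and ribosomal proteins from 0.48 to 0.17. Chaperonins and mitochondrial chaperones went from 0.62 to 0.31 and translation factors from 0.54 to 0.18. Nucleotide synthesis went from 0.80 to 0.20, replication licensing from 0.78 to 0.19 and mitosis and cell cycle from 1.11 to 0.11. Without the tumour, 20 replication licensing genes and 24 mitosis and cell cycle genes entered, against 25 and 34 with it. The median of gluconeogenesis and the fasting response was -0.46 with all arrays, -0.49 without the tumour and -0.48 without the 5-month transgenic array (replicate 1).

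Clock genes had 7 of 19 (36.8%) below and 1 above. After Usp2 and Per3, Tef, a transcription factor under clock control, read 659 and 693 against 400 and 257, a gap of 1.65-fold, and Clock was the member above at 1.01-fold. Immediate early genes had 9 of 22 (40.9%) below and 0 above, with medians of -0.91 at 5 months and -0.31 at 11 months. Dusp1, a phosphatase of MAP kinases, read 394 and 312 against 182 and 90.6, a gap of 1.71-fold.

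Lipid and energy lists were mixed. Cholesterol synthesis had 5 of 20 above and 0 below, with medians of 0.54 at 5 months and 0.03 at 11 months; Sqle, squalene epoxidase, read 198 and 93.5 against 604 and 269 (1.36-fold), Mvd had 1.35-fold and Dhcr7 1.26-fold. Fatty acid and triglyceride synthesis had 5 of 24 above and 4 below: Fasn, fatty acid synthase, read 647 and 332 against 1503 and 855 (1.32-fold), Scd2, a desaturase, had 1.32-fold and Elovl1 1.28-fold, while Dgat2 at 1.15-fold, Lpin1 at 1.12-fold and Mogat1 at least 1.12-fold were below. Fatty acid oxidation had 2 of 24 above, Hadhb (1.09-fold) and Ppargc1a (1.04-fold), although all 4 other probe sets of Ppargc1a and 1 of 2 of Hadhb had the opposite sign, and 3 below, Acaa1a (1.30-fold), Ppara (1.23-fold) and Acads (1.10-fold). Glycolysis had 2 of 17 above, Hk2, a hexokinase (1.32-fold), and Pgam1 (1.19-fold), and 1 below, Pfkm (1.01-fold). Oxidative phosphorylation had 3 of 27 above and 2 below, with no gap over 1.07-fold: Ndufb5, Cyc1 and Ndufab1 were above and Ndufa4 and Sdha below.

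Stress lists were mixed too. The integrated stress response and endoplasmic reticulum stress had 5 of 22 above and 3 below. Above were Creld2, Sdf2l1 (1.51-fold) and Hspa5, the chaperone BiP (1.17-fold), and below were Herpud1, Sesn2 (1.2-fold) and Chac1 (1.19-fold). The 1 other probe set of Sesn2 above the floor separated the genotypes the opposite way. Targets of p53 had 5 of 15 above, with Ccng1 at 1.30-fold, Zmat3 at 1.24-fold and Bbc3 at 1.15-fold, and 2 below, Trp53inp1 at 1.26-fold and Sesn2. NRF2 targets and glutathione enzymes had 5 of 21 on each side. Gstm3, Tkt, transketolase (1.62-fold), and Gpx3 (1.26-fold) were above, and Gclc, Gclm and Gsr, which make and reduce glutathione, were below at 1.33-fold, 1.16-fold and 1.07-fold. Interferon response genes had 7 of 20 (35.0%) above, led by Oasl1 (1.24-fold), Usp18 (1.23-fold) and Oasl2 (1.2-fold), and 3 below, Iigp1 (1.12-fold), Tap1 (1.08-fold) and Psmb9 (1.03-fold).

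**Figure D4:**
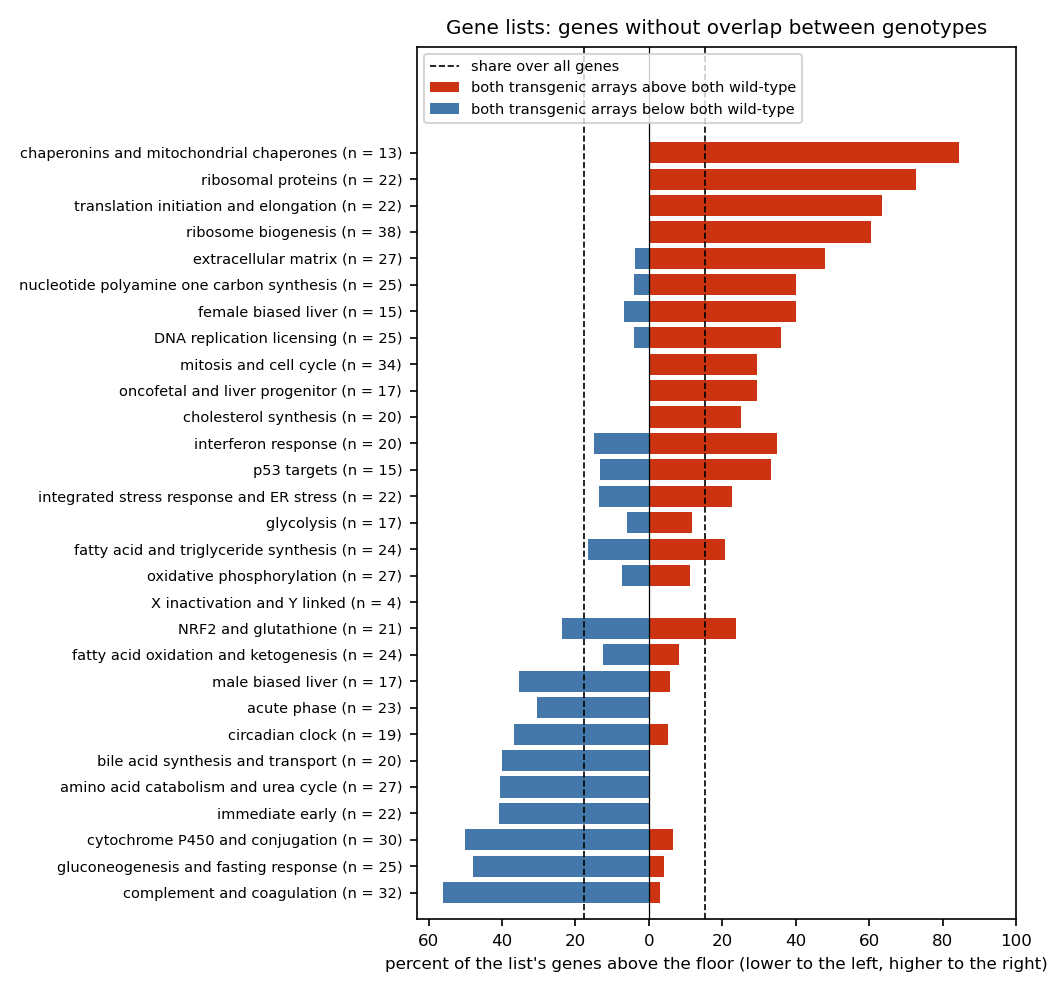
Percent of the measured genes of 29 lists whose transgenic arrays both lay above (red, to the right) or both below (blue, to the left) the wild-type arrays, with dashed lines at the share over all genes, 15.2% above and 17.6% below. Chaperonins and mitochondrial chaperones reach 84.6% above and complement and coagulation genes 56.2% below.

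Oncofetal and progenitor genes had 5 of 17 (29.4%) above and 0 below. Igf2, the fetal growth factor, read 31.9 and 40.7 in wild-type liver, 73.7 at 5 months and 2903 in tumour, so that its gap of 1.81-fold is small beside the tumour's own difference. Sox4, a transcription factor, had 1.57-fold, with 2 of 4 other probe sets above the floor of the opposite sign. Gpc3, glypican 3, had 1.36-fold. Extracellular matrix genes had 13 of 27 (48.1%) above and 1 below. After Col3a1, Sparc, a matrix glycoprotein, had 1.37-fold and Col4a2, of basement membrane collagen, 1.33-fold, while Dcn, decorin, was below at 1.02-fold. A list of tubulins, drawn up after Dynll1 and Cct3 had been seen, had 6 of 11 above and 0 below: Tubb4b read 379 and 371 against 751 and 1251 (1.98-fold), Tuba1a had 1.88-fold and Tubb2a 1.32-fold. The Integrator complex, added after Ints10 was seen, had 3 of 14 above, with Ints2 at 1.90-fold and Ints3 at least 1.74-fold, and 2 below, Ints1 at 1.28-fold and Ints8 at 1.18-fold.

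Single probe sets with the opposite sign were also found for Tef and Orc1 (their only other one above the floor), Ints1 (likewise), Eif4e, Clock, Sparc, Tspan8 and Tubb4b, and for Egfl7 in 2 of 3.

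Lists of sex-biased liver genes were set beside the sex-linked genes, because the labels give no sex. Female-biased genes had 6 of 15 (40.0%) above and 1 below, with medians of 2.04 at 5 months and 0.00 at 11 months. Of the 15, 8 and 9 were above the floor in wild-type liver, 15 at 5 months and 11 in tumour. Without the 5-month transgenic array only 11 entered, so that array shaped both the choice of genes and the medians. Beside Cyp17a1, Abcd2, a peroxisomal transporter, read 78.0 and 49.5 against 167 and 142 (1.82-fold), Atp6v0d2 had 1.80-fold, and Cux2 was below at 1.12-fold, with the opposite sign in both of its other probe sets. Their summed intensity was 2236 and 5122 in wild-type liver, 7779 at 5 months and 2570 in tumour. Male-biased genes had 6 of 17 (35.3%) below and 1 above, with medians of -0.10 and -2.43. Slco1a1, an organic anion carrier, read 1686 and 1261 against 950 and 43.1 (1.33-fold), C8a, of the membrane attack complex, had 1.2-fold, C6 is given above, and Ces2b was above at 1.12-fold. Of the X-inactivation and Y-linked genes, 0 of 4 separated the genotypes. Xist, named after its values were seen, read 63.2 and 71.0 in wild-type liver, 223 at 5 months and 54.9 in tumour, and Uty, which is Y-linked, read 109, 80.7, 89.5 and 31.4 in the same order. The part of sex in Cyp17a1 and in these lists was not tested. Leaving the sex-biased and pancreatic lists out, an alternative chosen after seeing the data, gave 25 higher and 16 lower genes at 2-fold. By construction this removed only Cyp17a1, and Bcl6 is on none of these lists. The count therefore cannot show whether sex or pancreatic RNA has a part in the other genes.

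Markers of liver cell types were compared in the same way. General hepatocyte markers were bright on all 4 arrays, with summed intensities of 46190 and 48630 in wild-type liver, 46100 at 5 months and 40210 in tumour, and 4 of 12 below and 0 above: Cebpa had 1.18-fold, Apoc3 1.02-fold and Hnf4a 1.01-fold. Pericentral markers had 7 of 14 below and 0 above, with sums of 24060, 22540, 22570 and 8887; Slc1a2 (1.21-fold) and Gulo (1.11-fold) followed Oat. Periportal markers had 3 of 12 below and 0 above, with Etnppl at 1.38-fold and Tat at 1.23-fold after Pck1, and sums of 24680, 22230, 20490 and 14090. The tumour had the lowest sum in all 3 lists.

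Stellate cell and fibroblast markers had 4 of 15 above and 1 below. Acta2, smooth muscle actin, read 160 and 144 against 260 and 337 (1.63-fold), beside Col3a1 and Pdgfrb. The summed level of the whole list was 2487 and 2654 in wild-type liver, 3132 at 5 months and 2225 in tumour, so that the sums overlapped while the leading members did not. Their part in the collagen result was not tested. Macrophage markers had 2 of 16 above, with C1qa and Lyz2 (1.03-fold), and 3 below, Timd4 (1.27-fold), Cd5l (1.07-fold) and Csf1r (1.06-fold). Endothelial markers had 1 of 15 on each side, Egfl7 (1.02-fold) above and Tek (1.15-fold) below, and cholangiocyte markers 1 of 5 on each side, Sctr (1.32-fold) above and Tspan8 (1.27-fold) below.

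Blood and other cell types added few genes. Neutrophil and monocyte markers had 3 of 10 below and 0 above: Csf3r (1.2-fold), Mmp8 (1.17-fold) and S100a8 (1.10-fold). Markers of B and plasma cells had Blk above, at least 1.42-fold, and Jchain below, at 256 and 121 against 65.8 and 57.3 (1.84-fold), of 8 genes. T and NK cell markers had 1 of 7 below, Prf1 (1.04-fold), and erythroid markers 1 of 2 below, Alas2 (1.26-fold). Adipocyte markers had 1 of 7 above, Fabp4, at 123 and 93.0 against 142 and 1487 (1.16-fold), and 3 below, Lipe (1.05-fold), Slc2a4 (1.04-fold) and Retn (1.03-fold). Pancreatic acinar markers had 2 of 12 above, Clps at least 1.59-fold and Cela3b at 1.44-fold. Their summed level was 511 and 434 in wild-type liver, 2084 in the 5-month transgenic sample and 470 in tumour, so that 1 array stood apart. The part of pancreatic RNA in the other values of that array was not tested.

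Promoters of the genes that lay on the same side were searched for the E-box CACGTG, which reads the same on both strands. A RefSeq promoter window, 250 bases before to 50 after the start, was listed for 11200 of the 13956 genes, and 1088 of those (9.71%) held the motif. The share was 11.3% (195 of 1726) in the higher genes, 9.45% (189 of 2000) in the lower genes and 9.42% in the overlapping genes. Of the genes with a 2-fold gap, 1 of 19 higher and 1 of 13 lower genes held it. In ribosome biogenesis 8 of 33 windows (24.2%) held it, in gluconeogenesis and the fasting response 8 of 22 (36.4%), and in the clock and immediate early lists 5 of 17 each (29.4%). Some lists on both sides thus had shares over that of all genes, and others did not. On the higher side, translation factors had 18.8% and ribosomal proteins 11.1%. Chaperonins and nucleotide synthesis had 9.09% each, replication licensing 5% and mitosis and cell cycle 3.85%. On the lower side, amino acid catabolism had 9.52%, bile acid genes 7.14% and cytochrome P450 and conjugation 4%. Complement and coagulation and acute phase genes had 0%. A match is a description of the letters and no evidence of binding.

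Windows of 60 bases around the motif are shown for 7 genes that separated the genotypes, higher genes first, with CACGTG in capitals (RefSeq, GRCm38.p6, 5′ to 3′ on the gene's strand). Nop2 (chr6:125131796-125131855, plus) and Imp4 (chr1:34439681-34439740, plus), a small-subunit processome protein with a gap of 1.07-fold, are from ribosome biogenesis. Atic (chr1:71557096-71557155, plus), a purine synthesis enzyme with a gap of 1.26-fold, and Cdk4 (chr10:127063475-127063534, plus), the kinase partner of cyclin D1 with 1.10-fold and 4 copies of the motif in the 250 bases before its start, are from growth and cell cycle lists. Tef (chr15:81802519-81802578, plus), Dusp1 (chr17:26508566-26508625, minus) and Nr1i3 (chr1:171213720-171213779, plus) are lower genes. Nop2, Tef, Dusp1 and Nr1i3 are described above, and Imp4, Atic and Cdk4 were picked after their values were seen:
Nop2: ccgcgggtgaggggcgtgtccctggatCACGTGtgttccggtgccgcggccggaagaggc
Imp4: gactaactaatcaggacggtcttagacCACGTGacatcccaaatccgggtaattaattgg
Atic: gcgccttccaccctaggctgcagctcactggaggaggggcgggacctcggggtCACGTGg
Cdk4: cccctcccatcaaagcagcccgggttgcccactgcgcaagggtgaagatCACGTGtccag
Tef: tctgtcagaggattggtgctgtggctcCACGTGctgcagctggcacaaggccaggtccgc
Dusp1: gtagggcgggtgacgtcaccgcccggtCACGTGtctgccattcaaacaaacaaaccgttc
Nr1i3: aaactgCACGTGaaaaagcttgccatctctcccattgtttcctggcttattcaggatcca
The motif began 60 bases before the start in Nop2, 121 in Imp4, 7 in Atic, 127 in Tef, 126 in Dusp1 and 244 in Nr1i3. In Cdk4 the copy shown began 11 bases before it.

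How the arrays were put on 1 scale set the balance between the sides. The deposited medians were 27.6 and 24.5 in wild-type liver, 25.2 at 5 months and 35.8 in tumour. Of the genes that did not overlap, 46.3% were higher after quantile normalization, 77.6% with the values as deposited (3250 higher, 936 lower) and 60.6% after a shift to a common median (2706 and 1759). The median difference of all genes was -0.02, 0.20 and 0.03 on the log2 scale in that order. All 26 and 16 genes with a 2-fold gap kept their side under each of these scalings. A rule that asks for a large gap favours this by construction. As deposited, 19 of the higher and 4 of the lower genes kept a 2-fold gap, and with the median shift 26 and 14. Control transcripts added before labelling (12 poly-A probe sets) read higher by 0.95 at 5 months and 0.04 at 11 months in transgenic than in wild-type samples as deposited, and by 0.96 and -0.57 after quantile normalization. Hybridisation controls (9 probe sets) differed by -0.04 and 0.13 as deposited and by -0.02 and -0.38 after it. The ratio of the 3′ to the 5′ probe set of Actb, a sign of RNA quality, was 1.90 and 2.32 in wild-type and 1.63 and 2.09 in transgenic samples, and the genotypes overlapped.

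Over all genes, 3250 of 14080 lay above and 936 below as deposited, and 2706 of 13946 and 1759 with the median shift. The list counts under these scalings are to be read beside those shares. The growth lists kept their side: ribosome biogenesis had 25 of 38 above as deposited and 26 with the median shift. Ribosomal proteins had 20 and 21 of 22, and chaperonins and mitochondrial chaperones 13 of 13 in both. The lower lists kept the sign of their median with fewer genes without overlap. Complement and coagulation had 12 of 32 below as deposited and 8 with the median shift. Cytochrome P450 and conjugation had 10 and 10 of 30, and amino acid catabolism 4 and 4 of 27. With the median shift, the share of amino acid catabolism genes below was near that over all genes. As deposited, the median over all genes was itself 0.20. The medians of fatty acid oxidation, the sex-linked genes, and the stellate, endothelial, macrophage, B cell, erythroid and adipocyte lists then lay above 0. With quantile normalization they were below 0. Relative to all genes, the deposited values gave medians from -0.17 (erythroid) to -0.04 (adipocyte), except for macrophage markers at 0.03.

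**Figure D5:**
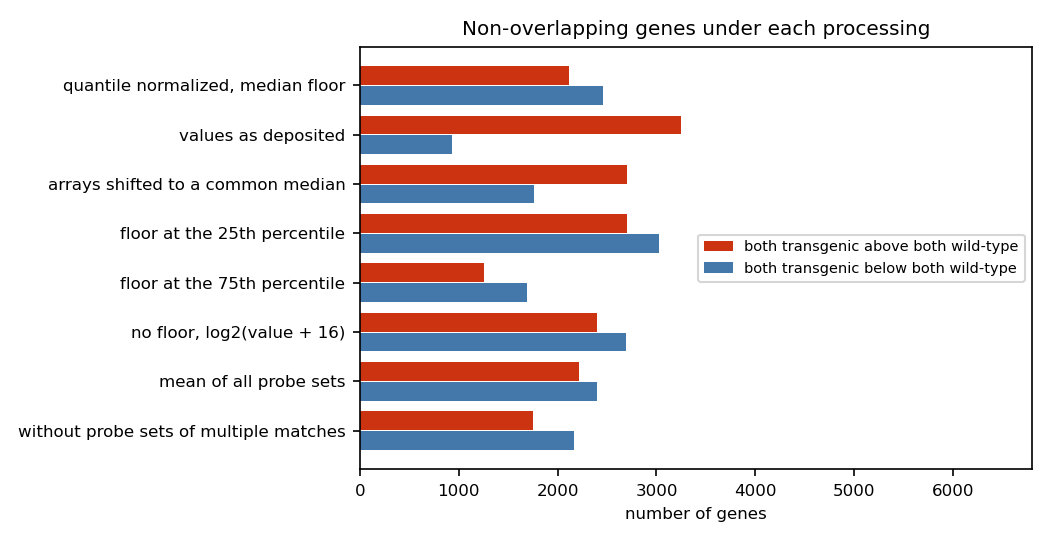
Number of genes with both transgenic arrays above (red) or below (blue) both wild-type arrays under 8 ways of processing the same values. The values as deposited give 3250 above and 936 below, and quantile normalization gives 2116 and 2459.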

How the data were processed

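Liver RNA of 4 groups was measured on Affymetrix Mouse Genome arrays (45101 probe sets). The deposited series matrix held linear intensities per probe set, from 0 to 8783.5, as its numbers show; the summarisation, background correction and scaling that the authors used were not given in the sources used here. Per the labels' protocols, total RNA was extracted with Trizol and labelled as biotinylated cRNA. The number of arrays limits the precision.

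Arrays were quantile normalized, floored at the median and put on the log2 scale. Of 34958 probe sets with 1 symbol in the platform annotation (932 had several and 9211 were unlisted), 34754 matched RefSeq of GRCm38.p6, and the one with the highest mean represented each of 18194 genes. Of these, 13956 exceeded the floor. A total of 0 value columns went unused. Genotypes were compared by gap and by limma 3.58.1 (R 4.3.3), without and with age as a block, because the replicate numbers follow age; Python 3.11.15, numpy 2.4.6 and pandas 2.3.3 did the rest. The steps were tested on simulated data with large changes planted in genes well above the floor and noise taken from the wild-type pair. That test does not cover small gaps or genes near the floor.

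The members and lists were chosen with earlier results of these data known. Named were Myc, the 12 largest gaps per direction above the floor on all arrays and the 6 largest bounds, both without an opposed probe set, and up to 3 genes per list and direction, or, where a list had no gap, its gene with the largest difference. Clone names were counted only. Alternatives were other scalings, floors, probe set rules and thresholds, and leaving out each array.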

Additional observations from a re-analysis of the deposited data

Results flagged for a closer look

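Some lists lay on opposite sides of wild-type at the 2 ages, by the median log2 ratio of transgenic to wild-type liver; these differences between ages were not tested, since each rests on 1 array per state. Fatty acid and triglyceride synthesis had a median of 0.274 at 5 months and -0.301 at 11 months. Fatty acid oxidation and ketogenesis had 0.148 and -0.383. The stellate cell and fibroblast markers had 0.383 and -0.433, although Col3a1, Pdgfrb and Acta2 among them were higher in both transgenic samples. The 4 X-inactivation and Y-linked genes had 0.116 and -0.744.

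Probe sets outside the named genes were looked at as well. The control probe set named for the murine B1 repeat (AFFX-MURINE_b1_at) read 248 and 156 in wild-type liver and 672 and 620 in transgenic liver, a gap of 1.32 on the log2 scale (2.5-fold). It was the only 1 of 59 control probe sets above the floor with a 2-fold gap. Among 4175 probe sets above the floor that the annotation does not name, 336 (8.05%) lay above in both transgenic samples and 622 (14.9%) below. Both shares were under those over all genes, 15.2% and 17.6%. At 2-fold, 4 lay above and 1 below, again smaller shares than the 0.186% and 0.115% over all genes.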

How the results depend on the processing

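The count of genes called by limma was 0 in each direction under all 26 alternative counts, and the age block (replicate block) also gave 0. As deposited, 3250 genes were higher and 936 lower, 6 of the latter at 2-fold. The floor at the 25th percentile gave 121 higher and 79 lower genes at 2-fold, and at the 75th percentile 1252 genes were higher, with 9 higher and 4 lower at 2-fold; 17 of the 26 and 11 of the 16 genes with a 2-fold gap then still lay on their side, most with a smaller gap. Dropping suffixed probe sets gave 18 and 14 at 2-fold. Averaging all probe sets of a gene gave 10 and 7 at 2-fold. A limit of 1.5-fold gave 186 and 118, and 3-fold gave 6 and 2. Leaving out 1 array eases the rule by construction: 3512 to 5045 genes were then higher and 4016 to 4826 lower, with 69 to 749 and 55 to 522 at 2-fold. The counts at 2-fold were 138 and 82 without wild-type replicate 1 (5 months), 69 and 83 without wild-type replicate 2 (11 months), 749 and 522 without transgenic replicate 1 (5 months) and 94 and 55 without transgenic replicate 2 (tumour).

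Some values turned sign; the cause was not tested. The gap of Egfl7 was -0.0333 with all probe sets averaged (0.026 otherwise). Relative to all genes, list medians with 1 array left out ran from -0.186 to 0.925 for cholesterol synthesis and from -0.0423 to 2.28 for pancreatic acinar markers, turning sign without transgenic replicate 1. They ran from -1.03 to 0.0042 for bile acid synthesis, from -0.0013 to 0.457 for p53 targets, from -1.04 to 0.0266 for pericentral markers, from -1.01 to 0.0569 for periportal markers and from -1.36 to 0.00050 for erythroid markers, turning sign without transgenic replicate 2. The erythroid median also became 0.15 at the 25th percentile floor and 0.20 when suffixed probe sets of multiple matches were dropped. Of the other gaps of named genes, counted over the alternatives, 1476 kept their side and 384 moved without turning sign. A separated gene keeps its side by construction when 1 array is left out, so part of the 1476 was fixed in advance. Some gaps became 0, an overlap, as for Camkk2 without suffixed probe sets and for Egr3 and Nlgn2 at the 75th percentile floor. The low signal of many genes, close to the floor, limits their gaps to bounds.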
